A study of Homo sapiens with 13 samples.

Results

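Solute carriers are membrane proteins that move small molecules and ions across the plasma membrane and the membranes of organelles without spending ATP themselves, and their gene symbols begin with SLC followed by a family number. The 170 solute carrier genes described here were chosen by measured values, from 235 genes with such a symbol among 9706 genes in all. Those 9706 genes are the union of 3 tables listing genes that differ from undifferentiated stem cells, and a solute carrier was kept where its mean level over the 2 libraries of a group reached 1 in at least 1 of 5 groups. A level, or the value of a gene in a library, is log2(RPKM + 0.1) throughout, RPKM being reads scaled to transcript length and to library size, so a level of 1 is about 2 RPKM and a difference of 1 is about a doubling. SLC13A4 (1.03 in its highest group), SLC28A1 (1.04) and SLC34A2 (1.05) lay just inside that limit. SLC5A7 (0.99), SLC9A9 (0.99) and SLC17A8 (0.83) lay just outside it. By the tables, 63 of the 170 were listed for N3+PGCLC (37.1%, beside 26.6% of all 9706 genes) and 116 for DM+PGCLC (68.2%, beside 55.6%). For d8 DZ+PGCLC 104 were listed (61.2%, beside 70.7%), and 27 were listed in all 3 (15.9%, beside 12%).

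RNA was sequenced in bulk from 10 libraries, 2 independent biological replicates in each of 5 groups, all from the human embryonic stem cell line WIS2. The 4i ESC carried NANOS3-tdTomato and DMRT1-Venus reporters, were kept on feeders from mouse with 4 kinase inhibitors (against ERK, JNK, p38 and GSK3) beside LIF, TGF-beta and bFGF, and were sorted by TNAP, an alkaline phosphatase. N3+PGCLC, that is primordial germ cell-like cells positive for NANOS3, were made from that reporter line by BMP2, EGF, SCF and a ROCK inhibitor, and the sort was on TNAP with NANOS3. DM+PGCLC had the same start and were moved on day 3 to EGF, SCF, retinoic acid and activin A for 6 more days; their titles call them DMRT1-positive, while the sort in their descriptions is again TNAP and NANOS3. d4 DZ+PGCLC and d8 DZ+PGCLC came from a different reporter line, with DAZL-tdTomato, a SOX17 that dexamethasone activates and a DMRT1 that doxycycline induces. Those cells had 1 day of BMP2, SCF, EGF, ROCK inhibitor and dexamethasone, then dexamethasone and doxycycline with EGF, SCF, retinoic acid and activin A, and were sorted as DAZL-positive on day 4 or day 8. Reporter line, transgenes, both drugs and the cytokine schedule therefore go together with the DZ+ label. A difference between a DZ+ group and any other group cannot be told apart from them. N3+PGCLC had no retinoic acid or activin A, and DM+PGCLC differed from the DZ+ groups in days in culture as well. The labels give 2 days of the later cytokines also for the day 8 sort, and what followed is not given there.

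Substrate decides how the family is usually read. Glucose enters through the SLC2 carriers and lactate leaves through the monocarboxylate carriers of SLC16, amino acids cross by exchangers of SLC7 and by sodium-driven carriers of SLC1, SLC6 and SLC38, zinc enters the cytosol through SLC39 (ZIP) and leaves it through SLC30 (ZnT), and SLC25 carriers span the inner mitochondrial membrane. Pluripotent stem cells in culture are known for heavy use of glucose and of several amino acids. By substrate the 170 genes fell into 23 carriers of amino acids, 22 of protons, bicarbonate and inorganic ions, 21 mitochondrial carriers, 17 of vitamins, nucleosides, choline and haem, 15 of metals, 12 of sugars, 12 of carboxylates and fatty acids, 9 of neurotransmitters and osmolytes, 9 of organic ions, bile acids and peptides, 5 of nucleotide sugars, and 25 with other or unsettled substrates, among them the adaptors SLC9A3R1 and SLC9A3R2, which are scaffold proteins and carry nothing.

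The libraries were close within groups. Over the 170 genes, levels correlated at 0.954 to 0.984 between the libraries of a group and at 0.540 to 0.863 between groups, a description across genes that share libraries. Read totals were not in the tables used here, and steps between low values place the depths of the other 9 libraries at roughly 0.664 to 1.14 of that of 4i ESC replicate 1. Library medians over all 9706 genes ran from 2.12 to 2.56 and were lowest in d4 DZ+PGCLC, so centring the libraries raised the difference from N3+PGCLC to d4 DZ+PGCLC by 0.34 for each gene, and that from DM+PGCLC to d8 DZ+PGCLC by 0.18. Markers followed the labels in part. POU5F1 stood at 8.26 to 9.68 in the first 3 groups and at 1.23 to 3.58 in the DZ+ groups. DMRT1 stood at 1.00 to 1.55 in 4i ESC and N3+PGCLC and at 6.35 and 6.38 in DM+PGCLC. In the DZ+ groups, where a DMRT1 transgene was induced, it stood at 12.01 to 12.42. DAZL, for which the DZ+ groups were sorted, stood at 1.27 to 3.51 there and at -2.45 or lower elsewhere. NANOS3, for which DM+PGCLC and N3+PGCLC were sorted, stood at -3.32 to -1.49 in the DZ+ groups. TFAP2C, a further germ cell marker, stood at 1.21 to 1.72 there, beside 5.41 and 5.47 in 4i ESC. KIT, another, stood at -0.52 to 0.18, beside 2.25 and 2.62. CDH5 stood at -2.49 to -2.18 in the DZ+ groups, beside 6.99 and 7.66 in DM+PGCLC. PRDM1 (2.30 to 4.42), SOX17 (6.39 to 7.66, with a transgene) and PIWIL2 (0.52 to 1.92) stood higher in the DZ+ groups than in 4i ESC. The N3+PGCLC libraries were not alike in markers of other cell types. The summed RPKM of 6 endoderm markers was 77.5 in replicate 1 and 434 in replicate 2, against 2.46 to 21.9 in the other 8 libraries, and that of 8 mesoderm and amnion markers was 72.7 and 351, against 1.19 to 27.1. Fibroblast and stroma markers (7 genes) summed to 480 and 882 RPKM in 4i ESC and to 392 and 511 in N3+PGCLC. Their sum was 329 in DM+PGCLC replicate 1, 99.9 in DM+PGCLC replicate 2 and 44.1 to 73.2 in the DZ+ groups. In bulk RNA fewer cells of a type and less RNA per cell cannot be told apart.

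Most of the 170 genes were expressed in every group and still differed widely among them. In 97 the group mean was 1 or more in all 5 groups, and in 36 in a single group. These 36 genes are members only because they were high in that group, so their differences to and from it are given below without a test. The range of the group means had a median of 2.60 over the 170 genes, beside 2.26 over the 7590 genes of the tables that pass the same limit on level. It ran from 0.71 for SLC25A38, a mitochondrial carrier needed for haem synthesis, to 6.85 for SLC39A2, a zinc importer, and exceeded 4 in 38 genes. The highest group mean fell in DM+PGCLC for 56 of the 170 genes (32.9%, beside 26.3% of those 7590), in 4i ESC for 37 (21.8%, beside 25.7%), in d8 DZ+PGCLC for 34 (20.0%, beside 21.9%), in d4 DZ+PGCLC for 27 (15.9%, beside 12.1%) and in N3+PGCLC for 16 (9.41%, beside 14.0%). The heat map of all members shows these blocks of high values class by class.

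**Figure D1:**
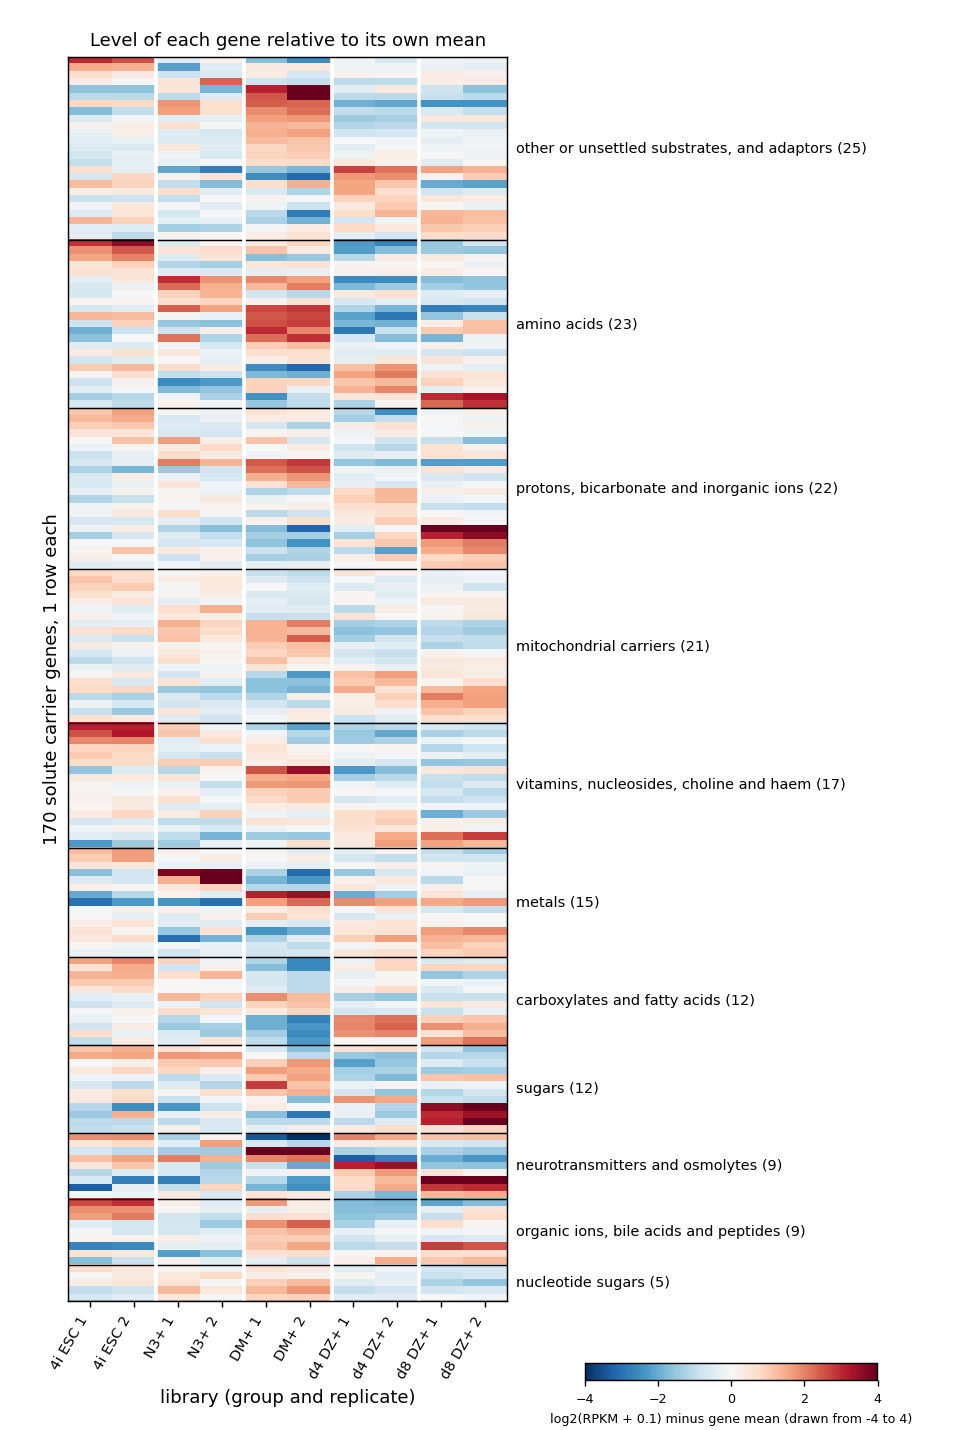
Level of each of the 170 solute carrier genes relative to its own mean over the 10 libraries, as log2(RPKM + 0.1) minus that mean (colour, drawn from -4 to 4), with genes as rows grouped by substrate class and libraries as columns (N3+, DM+, d4 DZ+ and d8 DZ+ stand for the PGCLC groups). Within a class the rows run from genes highest in 4i ESC to genes highest in d8 DZ+PGCLC, and DM+PGCLC holds the most highest values (56 genes).

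Against 4i ESC the values that chose the members are described without a test. A gene is counted as moved where its group means differ by over 1 and the libraries of the 2 groups do not overlap. In N3+PGCLC 22 of the 170 genes stood higher (12.9%, beside 17.2% of all 9706 genes and 18% of the 7590 at that level). Lower were 43 (25.3%, beside 16% and 16.2%). In DM+PGCLC 51 stood higher (30%, beside 24.9% and 27.5%) and 56 lower (32.9%, beside 24% and 24.4%). In d4 DZ+PGCLC 33 stood higher (19.4%, beside 19.9% and 20.7%) and 43 lower (25.3%, beside 27.6% and 30.5%). With centred libraries 45 stood higher and 34 lower. Centring shifts every gene in that comparison by 0.31, and the shares of all genes given are without it. In d8 DZ+PGCLC 44 stood higher (25.9%, beside 31.2% and 28.1%) and 48 lower (28.2%, beside 29.6% and 33.9%). Genes at the limit on level in 1 of the compared groups only made up 2 of 22 higher and 8 of 43 lower in N3+PGCLC. They made up 9 of 51 and 9 of 56 in DM+PGCLC, and 2 of 33 and 8 of 43 in d4 DZ+PGCLC. In d8 DZ+PGCLC they made up 12 of 44 and 9 of 48. The 4 comparisons share the 4i ESC libraries. The genes that stood farthest below 4i ESC in d8 DZ+PGCLC were SLC47A1, SLC1A2, SLC19A3, SLC52A3, SLC1A1 and SLC6A6, carriers of organic cations, glutamate, thiamine, riboflavin, glutamate and taurine in that order. Of these SLC1A2, SLC19A3, SLC52A3 and SLC1A1 reached the limit on level in 4i ESC alone, so they are members only because they were high there.

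Between the germ cell-like groups 4 comparisons were tested, in 1 limma fit over all 9706 genes with adjusted p-values. None of these contrasts was part of the choice, although their libraries were: those of N3+PGCLC, DM+PGCLC and d8 DZ+PGCLC through the tables against 4i ESC, and all of them through the limit on level. A gene is called where it differs by over 1 at an adjusted p under 0.05. From N3+PGCLC to DM+PGCLC 39 of the 170 carriers rose (22.9%, beside 13.9% of all genes and 15.7% of the 7590 at that level) and 25 fell (14.7%, beside 12.1% and 12.6%). From N3+PGCLC to d4 DZ+PGCLC 30 rose (17.6%, beside 15.5% and 16.4%) and 40 fell (23.5%, beside 24.1% and 27.6%), shares near those of all genes. Centring, which shifts every gene in that comparison by 0.34, turned that split to 48 risen and 30 fallen. Shares of all genes with centred libraries are not given here, for this comparison or the next. From DM+PGCLC to d8 DZ+PGCLC 42 rose (24.7%, beside 28.1% and 25.1%) and 57 fell (33.5%, beside 27.5% and 32.6%), or 49 and 49 with centred libraries, and both shares lay near those of the genes at the same level. From d4 DZ+PGCLC to d8 DZ+PGCLC 31 rose (18.2%, beside 15.4% and 12.6%) and 17 fell (10.0%, beside 8.3% and 9.84%), where the 48 calls dropped to 30 without d4 DZ+PGCLC replicate 1, 28 without d8 DZ+PGCLC replicate 1 and 22 without d8 DZ+PGCLC replicate 2. Genes high in 1 of the compared groups only, which the limit on level let in, made up 8 of the 39 rises and 2 of the 25 falls in the first comparison, 1 of 30 and 2 of 40 in the second, 10 of 42 and 9 of 57 in the third, and 9 of 31 and 2 of 17 in the last. Counts by substrate class below include such genes. The shares beside those counts are of all 9706 genes, not of the genes at the same level. The median difference of the 170 carriers was 0.30, 0.07, -0.15 and 0.14 in these 4 comparisons in turn, beside 0.00, -0.08, 0.09 and 0.19 over all genes.

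**Figure D2:**
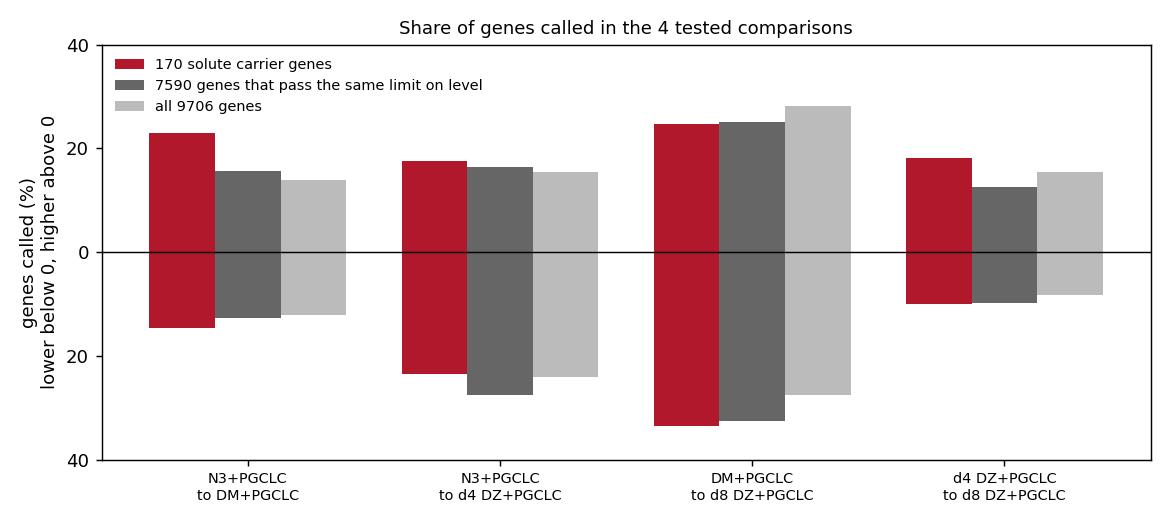
Share of genes called higher (bars above 0) and lower (bars below 0) in each of the 4 tested comparisons, in percent, for the 170 solute carrier genes (red), the 7590 genes that pass the same limit on level (dark grey) and all 9706 genes (light grey), on 1 axis. The bar of the carriers stands furthest above the other bars for the rise from N3+PGCLC to DM+PGCLC (22.9% beside 15.7% and 13.9%), while for the fall from DM+PGCLC to d8 DZ+PGCLC it stands near that of the genes at the same level (33.5% beside 32.6%).

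Promoters of 5 carriers on which the group patterns turn are shown here, 1 that peaked in N3+PGCLC (SLC39A2), 1 in DM+PGCLC (SLC18A2), 1 high in DM+PGCLC and both DZ+ groups (SLC30A4) and 2 high in d8 DZ+PGCLC (SLC2A5 and SLC6A13). Each runs 5′ to 3′ on the strand of its gene, over 300 bases around the RefSeq start on GRCh38.p14, and capitals mark matches, on either strand, to 3 motifs: TGATGNAA, the C/EBP-ATF element of amino acid response genes, ACANTGT, the core of the motif known for DMRT1, and TGACGTCA, the cyclic AMP response element, which was added to the search once the sequences had been read. The table held promoters of 127 of the 170 genes.
SLC39A2 (chr14:20999043-20999342, plus strand): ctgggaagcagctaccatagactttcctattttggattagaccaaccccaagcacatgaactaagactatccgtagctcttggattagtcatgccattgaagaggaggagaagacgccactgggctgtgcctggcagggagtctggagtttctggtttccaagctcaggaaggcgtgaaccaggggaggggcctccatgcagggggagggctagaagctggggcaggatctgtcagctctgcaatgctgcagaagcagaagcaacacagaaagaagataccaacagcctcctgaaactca
SLC18A2 (chr10:117240864-117241163, plus strand): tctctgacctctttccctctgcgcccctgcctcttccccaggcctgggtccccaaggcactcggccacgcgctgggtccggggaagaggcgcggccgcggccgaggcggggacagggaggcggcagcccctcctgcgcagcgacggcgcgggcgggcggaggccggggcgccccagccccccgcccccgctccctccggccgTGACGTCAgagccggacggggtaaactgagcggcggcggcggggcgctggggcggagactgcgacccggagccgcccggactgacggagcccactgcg
SLC30A4 (chr15:45522706-45523005, minus strand): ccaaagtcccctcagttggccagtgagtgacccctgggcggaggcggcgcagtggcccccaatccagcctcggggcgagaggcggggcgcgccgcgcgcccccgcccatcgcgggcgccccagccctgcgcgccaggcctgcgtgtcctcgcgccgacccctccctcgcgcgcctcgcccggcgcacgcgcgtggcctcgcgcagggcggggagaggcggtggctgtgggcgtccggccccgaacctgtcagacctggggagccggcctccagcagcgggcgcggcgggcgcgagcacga
SLC2A5 (chr1:9069586-9069885, minus strand): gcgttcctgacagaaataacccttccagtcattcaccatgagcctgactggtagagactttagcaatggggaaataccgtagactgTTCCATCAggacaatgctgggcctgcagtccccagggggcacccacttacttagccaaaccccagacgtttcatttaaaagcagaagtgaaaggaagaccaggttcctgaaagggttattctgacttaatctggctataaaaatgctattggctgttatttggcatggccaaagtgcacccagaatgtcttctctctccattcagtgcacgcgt
SLC6A13 (chr12:262787-263086, minus strand): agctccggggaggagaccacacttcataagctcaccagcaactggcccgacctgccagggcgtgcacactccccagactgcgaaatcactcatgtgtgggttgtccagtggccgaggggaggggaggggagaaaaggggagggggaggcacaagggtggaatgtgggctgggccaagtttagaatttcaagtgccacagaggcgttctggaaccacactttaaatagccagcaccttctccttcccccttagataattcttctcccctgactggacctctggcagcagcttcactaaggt
SLC18A2 held 1 match to TGACGTCA and SLC2A5 held 1 to TGATGNAA on the reverse strand, and SLC39A2, SLC30A4 and SLC6A13 held no match to the 3 motifs. Among 183 promoters of member genes 9 held TGATGNAA (4.92%, beside 3.62% of all 35116 promoters), 7 held ACANTGT (3.83%, beside 5.36%) and 3 held TGACGTCA (1.64%, beside 1.85%). A match is a run of letters and no more than that. DMRT1 binding was not analysed here.

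Of the glucose carriers SLC2A1 and SLC2A3 were the most abundant, and both fell from N3+PGCLC to d4 DZ+PGCLC. SLC2A1 (GLUT1), the widespread glucose carrier, stood at 8.05 and 8.46 in 4i ESC, 8.44 and 7.83 in N3+PGCLC, 9.30 and 9.07 in DM+PGCLC, 6.25 and 6.36 in d4 DZ+PGCLC and 6.21 and 6.26 in d8 DZ+PGCLC. All 4 DZ+ libraries lay below the other 6. It fell by 1.83 ± 0.24 (SE) from N3+PGCLC to d4 DZ+PGCLC (limma adjusted p = 0.000688) and by 2.95 ± 0.24 from DM+PGCLC to d8 DZ+PGCLC (adjusted p = 5.73e-05). Its rise from N3+PGCLC to DM+PGCLC, 1.05 ± 0.24 (adjusted p = 0.0135), was 0.74 without N3+PGCLC replicate 2 and 0.94 without DM+PGCLC replicate 1, and neither was called. SLC2A3 (GLUT3), a high-affinity glucose carrier of neurons and embryos, stood at 8.71 and 8.81 in 4i ESC, 8.96 and 8.88 in N3+PGCLC, 7.23 and 6.15 in DM+PGCLC, 5.70 and 5.53 in d4 DZ+PGCLC and 6.07 and 6.09 in d8 DZ+PGCLC. It fell from N3+PGCLC both to DM+PGCLC, by 2.23 ± 0.31 (adjusted p = 0.00192), and to d4 DZ+PGCLC, by 3.30 ± 0.31 (adjusted p = 0.000159), while the change from DM+PGCLC to d8 DZ+PGCLC, -0.61 ± 0.31, was not called (adjusted p = 0.115). From N3+PGCLC to DM+PGCLC SLC2A1 and SLC2A3 thus went opposite ways.

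SLC2A14 lies 28081 bases from SLC2A3 on chromosome 12 (chr12:7812512-7891148 and chr12:7919230-8019007, GRCh38, both on the minus strand) and encodes a near copy of it. Of the 75-base words in its main transcript 14.8% also occur in SLC2A3, so reads can be uncertain between them, although only reads that mapped to a single place were kept. Its levels did not follow those of SLC2A3: 0.63 and 0.55 in 4i ESC, -0.30 and 0.20 in N3+PGCLC, 1.83 and 2.37 in DM+PGCLC, -0.45 or lower in d4 DZ+PGCLC and 1.88 and 1.97 in d8 DZ+PGCLC. It rose from N3+PGCLC to DM+PGCLC by 2.15 ± 0.37 (limma adjusted p = 0.00442), where SLC2A3 fell.

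SLC2A5, SLC2A7, SLC2A9 and SLC5A9 stood highest in d8 DZ+PGCLC. SLC2A5 (GLUT5), the fructose carrier, stood at 3.00 and 3.87 there and between -3.08 and -0.26 in the other 8 libraries. The difference was 4.72 ± 0.68 from d4 DZ+PGCLC and 3.88 ± 0.68 from DM+PGCLC. SLC2A7, a related carrier which lies 8682 bases from SLC2A5 (chr1:9002973-9026423 and chr1:9035106-9088478, both on the minus strand), stood at 0.83 and 1.83 in d8 DZ+PGCLC, was listed at 0 RPKM in 6 of the other 8 libraries and reached at most -2.74 in the rest. SLC2A9, a urate carrier set with the organic ions here, stood at 3.34 and 3.07 in d8 DZ+PGCLC, 1.68 and 2.13 in DM+PGCLC, 0.21 and 0.20 in N3+PGCLC and -2.08 to -0.36 in 4i ESC and d4 DZ+PGCLC. It rose by 3.64 ± 0.32 from d4 to d8 DZ+PGCLC (limma adjusted p = 0.000631). SLC5A9, a sodium-driven carrier of mannose and other sugars, stood at 3.93 and 4.33 in d8 DZ+PGCLC and at most at 2.39 elsewhere, and the 4i ESC libraries were 2.89 apart. It differed by 5.49 ± 0.92 from DM+PGCLC and by 4.07 ± 0.92 from d4 DZ+PGCLC. Of the 12 sugar carriers 5 rose (41.7%, beside 15.4% of all genes) and 2 fell (16.7%, beside 8.3%) from d4 to d8 DZ+PGCLC, and 3 of the 5, SLC2A5, SLC2A7 and SLC5A9, reached the limit on level in d8 DZ+PGCLC alone. SLC2A12, a glucose carrier, was highest in d4 DZ+PGCLC (2.21 and 1.98, beside -1.30 to 1.23 elsewhere), and rose by 2.20 ± 0.60 from N3+PGCLC (adjusted p = 0.0192) and fell by 2.62 ± 0.60 to d8 DZ+PGCLC (adjusted p = 0.0158). The rise lost its call without N3+PGCLC replicate 1 or either d4 DZ+PGCLC library (adjusted p = 0.0635 to 0.0951), and the fall without any 1 of its 4 libraries (adjusted p = 0.053 to 0.0966). SLC2A4, the insulin-responsive glucose carrier of muscle and fat, stood highest in 4i ESC (1.11 and 1.44).

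Of the lactate carriers SLC16A3 fell where SLC2A1 fell, and SLC16A1 fell already from N3+PGCLC to DM+PGCLC. SLC16A3 (MCT4), which exports lactate, stood at 5.72 and 5.92 in 4i ESC, 7.50 and 7.10 in N3+PGCLC, 8.05 and 7.45 in DM+PGCLC, 4.84 and 4.61 in d4 DZ+PGCLC and 5.27 and 5.28 in d8 DZ+PGCLC. It fell by 2.57 ± 0.23 from N3+PGCLC to d4 DZ+PGCLC (limma adjusted p = 0.00013) and by 2.47 ± 0.23 from DM+PGCLC to d8 DZ+PGCLC (adjusted p = 9.07e-05). SLC16A1 (MCT1), which moves lactate and pyruvate both ways, stood at 6.89 and 6.97 in 4i ESC, 6.19 and 6.88 in N3+PGCLC, 4.91 and 4.49 in DM+PGCLC, 5.20 and 5.60 in d4 DZ+PGCLC and 3.97 and 4.29 in d8 DZ+PGCLC. It fell by 1.83 ± 0.27 from N3+PGCLC to DM+PGCLC (adjusted p = 0.00239), where SLC16A3 differed by 0.45 ± 0.23 (adjusted p = 0.165). Its smaller fall from N3+PGCLC to d4 DZ+PGCLC, 1.14 ± 0.27 (adjusted p = 0.0101), was -0.80 with centred libraries, -0.79 without N3+PGCLC replicate 2 and -0.94 without d4 DZ+PGCLC replicate 1, and none of these was called.

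Some members of this class ran the other way. SLC16A6 and SLC16A7, further monocarboxylate carriers, and SLC27A6, a fatty acid carrier of the heart, were low in DM+PGCLC and high in d4 DZ+PGCLC. SLC16A6 stood at -2.49 and -2.87 in DM+PGCLC, -2.02 and -1.85 in N3+PGCLC, 1.43 and 1.82 in d4 DZ+PGCLC and 1.31 and 0.89 in d8 DZ+PGCLC. It rose by 3.56 ± 0.43 from N3+PGCLC to d4 DZ+PGCLC (limma adjusted p = 0.000469) and by 3.78 ± 0.43 from DM+PGCLC to d8 DZ+PGCLC (adjusted p = 0.000224). SLC27A6 stood at -0.94 and -1.67 in DM+PGCLC beside 2.96 and 3.22 in d4 DZ+PGCLC. Over the 12 carboxylate and fatty acid carriers 9 stood lower (75%, beside 24% of all genes) and 2 higher (16.7%, beside 24.9%) in DM+PGCLC than in 4i ESC, with a median difference of -1.89. Of the same 12 genes 1 rose (8.33%, beside 13.9% of all) and 4 fell (33.3%, beside 12.1%) from N3+PGCLC to DM+PGCLC. From DM+PGCLC to d8 DZ+PGCLC 5 rose (41.7%, beside 28.1%) and 2 fell (16.7%, beside 27.5%). In this class SLC13A4 reached the limit on level in 4i ESC alone and SLC13A5 in d8 DZ+PGCLC alone. The plot of sugar, carboxylate and amino acid carriers shows the opposed members side by side.

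**Figure D3:**
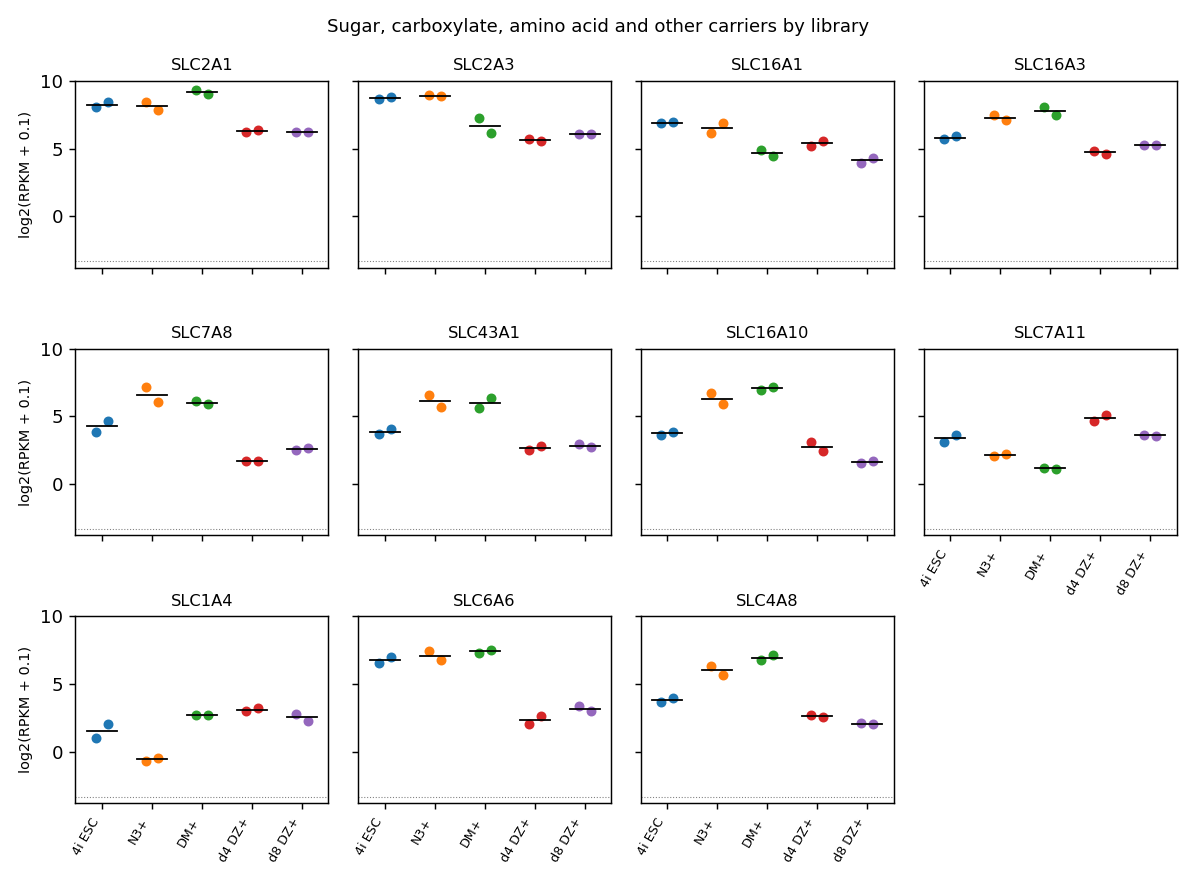
Level (log2(RPKM + 0.1), vertical axis, the same in every panel) of 11 carriers in each library (points) of the 5 groups (horizontal axis; N3+, DM+, d4 DZ+ and d8 DZ+ stand for the PGCLC groups), with the group mean as a black line and the level of 0 RPKM dotted. SLC2A1, SLC2A3, SLC16A3, SLC7A8, SLC43A1, SLC16A10, SLC6A6 and SLC4A8 sit lower in all 4 DZ+ libraries than in every N3+PGCLC and DM+PGCLC library. SLC2A3 does so narrowly (6.09 against 6.15), while SLC7A11 sits higher in all 4.

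Among amino acid carriers 3 that move large neutral amino acids, SLC7A8, SLC43A1 and SLC16A10, were high in N3+PGCLC and DM+PGCLC and low in the DZ+ groups. SLC7A8 (LAT2), an exchanger of neutral amino acids, stood at 3.83 and 4.68 in 4i ESC, 7.17 and 6.04 in N3+PGCLC, 6.16 and 5.88 in DM+PGCLC, 1.67 and 1.72 in d4 DZ+PGCLC and 2.50 and 2.64 in d8 DZ+PGCLC. It fell by 4.91 ± 0.39 from N3+PGCLC to d4 DZ+PGCLC (limma adjusted p = 9.23e-05) and by 3.45 ± 0.39 from DM+PGCLC to d8 DZ+PGCLC (adjusted p = 0.000231). SLC43A1 (LAT3), a uniporter of branched-chain amino acids, stood at 6.57 and 5.71 in N3+PGCLC and 5.60 and 6.35 in DM+PGCLC, at 3.66 and 4.05 in 4i ESC, and at 2.50 to 2.94 in the 4 DZ+ libraries. SLC16A10 (TAT1), a carrier of aromatic amino acids, stood at 6.69 and 5.89 in N3+PGCLC and 6.97 and 7.15 in DM+PGCLC, at 3.62 and 3.85 in 4i ESC, at 3.09 and 2.44 in d4 DZ+PGCLC and at 1.51 and 1.68 in d8 DZ+PGCLC. Its fall from DM+PGCLC to d8 DZ+PGCLC was 5.47 ± 0.30 (adjusted p = 1.41e-05).

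SLC7A5 and SLC1A5 were the most abundant amino acid carriers. SLC7A5 (LAT1), the main exchanger for leucine in dividing cells, stood between 6.61 and 8.13 in all 10 libraries and fell by 1.44 ± 0.24 from DM+PGCLC to d8 DZ+PGCLC (limma adjusted p = 0.00128). Its partner chain, the product of SLC3A2, was not among the genes tabulated and was not analysed here. SLC1A5 (ASCT2), the carrier best known for glutamine, stood between 6.26 and 7.46 and was not called in any of the 4 comparisons. The largest difference among them was 0.74 ± 0.13 from N3+PGCLC to d4 DZ+PGCLC (limma adjusted p = 0.00295). Centring raised each difference of that comparison by 0.34, which takes that of SLC1A5 past the limit of 1. SLC7A3, a carrier of arginine and lysine, broke the order of the groups. It stood at 4.83 and 5.10 in 4i ESC, 4.51 and 4.10 in N3+PGCLC, 1.27 and 0.68 in DM+PGCLC, 4.97 and 5.56 in d4 DZ+PGCLC and 3.62 and 3.45 in d8 DZ+PGCLC, so that it fell by 3.33 ± 0.28 from N3+PGCLC to DM+PGCLC (adjusted p = 0.00032). SLC7A1, the common carrier of the same amino acids, stood highest in that group (7.05 and 7.29, beside 5.37 to 6.29 in the other 8 libraries).

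SLC7A11, SLC1A4 and SLC6A9 rose from N3+PGCLC to d4 DZ+PGCLC. SLC7A11 (xCT), which brings in cystine in exchange for glutamate, stood at 3.14 and 3.65 in 4i ESC, 2.03 and 2.21 in N3+PGCLC, 1.21 and 1.08 in DM+PGCLC, 4.63 and 5.11 in d4 DZ+PGCLC and 3.61 and 3.57 in d8 DZ+PGCLC. It rose by 2.75 ± 0.24 from N3+PGCLC to d4 DZ+PGCLC (limma adjusted p = 0.00013) and by 2.44 ± 0.24 from DM+PGCLC to d8 DZ+PGCLC (adjusted p = 0.000124). It fell by 1.28 ± 0.24 from d4 to d8 DZ+PGCLC (adjusted p = 0.00734), with an adjusted p of 0.0529 without d8 DZ+PGCLC replicate 2. SLC1A4 (ASCT1), a carrier of alanine, serine and cysteine, stood at -0.68 and -0.44 in N3+PGCLC and at 2.30 to 3.19 in the 6 libraries of DM+PGCLC and the DZ+ groups. It rose by 3.64 ± 0.37 from N3+PGCLC to d4 DZ+PGCLC (adjusted p = 0.000229) and by 3.27 ± 0.37 from N3+PGCLC to DM+PGCLC (adjusted p = 0.000989). SLC6A9 (GLYT1), a glycine carrier set with the neurotransmitters, stood at 4.51 and 5.17 in d4 DZ+PGCLC and at 2.30 to 3.94 elsewhere, and rose by 2.26 ± 0.33 from N3+PGCLC to d4 DZ+PGCLC (adjusted p = 0.00112).

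Further amino acid carriers were high in a single group. SLC1A2 and SLC1A1, glutamate carriers of glia and neurons, stood at 2.75 and 3.43 and at 1.02 and 1.64 in 4i ESC, and every other library of either gene was at 0.72 or lower. SLC1A1 fell by 2.59 ± 0.40 from N3+PGCLC to d4 DZ+PGCLC (limma adjusted p = 0.00149). SLC7A9, the light chain of the kidney carrier for cystine and dibasic amino acids, stood at 2.09 and 2.45 in d8 DZ+PGCLC and at -3.32 to -0.34 elsewhere, and differed by 4.85 ± 0.55 from DM+PGCLC and by 2.64 ± 0.55 from d4 DZ+PGCLC. SLC38A3, a glutamine carrier of the liver, was high in the same group (2.56 and 3.18, beside -1.26 to 0.40). SLC6A17, a synaptic vesicle carrier of neutral amino acids, stood at 1.49 and 1.68 in DM+PGCLC and at most at 0.11 elsewhere, with a difference of 4.23 ± 0.57 from N3+PGCLC. SLC6A7, a proline carrier, stood at 0.98 and 1.67 in DM+PGCLC, but its N3+PGCLC libraries were 3.40 apart (0.90 and -2.50), the widest gap among the 170 genes. Of the 23 amino acid carriers 7 rose (30.4%, beside 13.9% of all genes) and 3 fell (13%, beside 12.1%) from N3+PGCLC to DM+PGCLC, and 4 rose (17.4%, beside 15.5%) and 7 fell (30.4%, beside 24.1%) from N3+PGCLC to d4 DZ+PGCLC. From DM+PGCLC to d8 DZ+PGCLC 5 rose (21.7%, beside 28.1%) and 11 fell (47.8%, beside 27.5%). From d4 to d8 DZ+PGCLC 5 rose (21.7%, beside 15.4%) and 4 fell (17.4%, beside 8.3%). Of these 23 genes SLC1A1 and SLC1A2 reached the limit on level in 4i ESC alone. SLC6A17 and SLC6A7 did so in DM+PGCLC alone, and SLC7A9 and SLC38A3 in d8 DZ+PGCLC alone.

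Among the metal carriers the zinc importers SLC39A2 and SLC39A5 reached a level of 1 in N3+PGCLC alone. SLC39A2 (ZIP2), a zinc importer of the plasma membrane, stood at 3.53 and 5.34 in N3+PGCLC and at -3.32 to -0.36 in the other 8 libraries. The difference from N3+PGCLC to DM+PGCLC was -6.85 ± 0.79, the farthest below 0 among the 170 genes in the 4 comparisons, and that to d4 DZ+PGCLC was -5.79 ± 0.79. SLC39A5 (ZIP5), a zinc importer of gut, pancreas and liver cells, stood at 0.48 and 3.49 in N3+PGCLC and at -3.32 to -0.56 elsewhere. Its difference to DM+PGCLC was -5.06 ± 0.88, and that to d4 DZ+PGCLC, -2.66 ± 0.88, was -1.15 without N3+PGCLC replicate 2 and -4.17 without replicate 1. In both genes N3+PGCLC replicate 2 was the higher library, as it was for the summed endoderm and mesoderm markers given above (434 against 77.5 RPKM and 351 against 72.7), and the part of such cells in these values was not tested. The other N3+PGCLC library of SLC39A2 (3.53) also stood above all 8 libraries of the other groups. That library stood above them in both marker sums too (77.5 against at most 21.9 RPKM and 72.7 against at most 27.1).

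SLC30A4 (ZnT4), which moves zinc into vesicles and out of the cell, stood at -2.76 to -2.05 in 4i ESC and N3+PGCLC and at 1.77 to 2.50 in the 6 libraries of DM+PGCLC and the DZ+ groups, with no overlap. It rose by 4.63 ± 0.42 from N3+PGCLC to DM+PGCLC (limma adjusted p = 0.000407) and by 4.44 ± 0.42 to d4 DZ+PGCLC (adjusted p = 0.000167), and differed by -0.33 ± 0.42 from DM+PGCLC to d8 DZ+PGCLC (adjusted p = 0.507) and by -0.14 ± 0.42 from d4 to d8 DZ+PGCLC (adjusted p = 0.827). SLC30A2 (ZnT2), a vesicular zinc carrier of secretory cells, stood at 2.08 and 2.39 in DM+PGCLC and at -3.06 to -0.53 in the other 8 libraries, with a difference of 3.42 ± 0.47 from N3+PGCLC. SLC30A3 (ZnT3), which fills synaptic vesicles with zinc, stood at -2.09 and -1.70 in DM+PGCLC and 1.95 and 2.20 in d8 DZ+PGCLC. SLC39A10 (ZIP10) and SLC39A8 (ZIP8), importers of zinc, stood highest in 4i ESC (5.58 and 5.98, and 3.34 and 3.98) and lowest in d8 DZ+PGCLC (3.40 and 2.95) or in the DZ+ groups (1.33 to 1.60), with no call in the 4 comparisons. SLC39A14, which imports iron and zinc, stood between 4.66 and 5.83. SLC11A2 (DMT1), the iron importer, stood between 5.35 and 6.11 in the first 4 groups and at 4.82 and 4.57 in d8 DZ+PGCLC, a fall of 1.27 ± 0.24 from DM+PGCLC (adjusted p = 0.00272). SLC41A2, a magnesium carrier, stood at -1.42 and -0.32 in N3+PGCLC and at 2.53 and 3.27 in d4 DZ+PGCLC, a rise of 3.77 ± 0.48 (adjusted p = 0.000592).

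Among carriers of neurotransmitters and osmolytes SLC18A2, SLC16A12, SLC6A12 and SLC17A7 reached a level of 1 in a single group each. SLC18A2 (VMAT2), which loads dopamine, serotonin and other monoamines into vesicles, stood at 4.71 and 4.27 in DM+PGCLC and at -1.92 to -1.11 in the other 8 libraries. The difference was 6.30 ± 0.32 from N3+PGCLC and -6.30 ± 0.32 to d8 DZ+PGCLC. A gene on the opposite strand, PDZD8, overlaps it, and the sources used here do not say whether counting used strand. SLC18B1, a vesicular carrier of polyamines, was lowest where SLC18A2 was highest, at 3.46 and 3.48 in 4i ESC, 0.33 and 1.74 in N3+PGCLC, -1.76 and the level of 0 RPKM in DM+PGCLC, 3.63 and 3.16 in d4 DZ+PGCLC and 2.77 and 2.82 in d8 DZ+PGCLC. It rose by 5.34 ± 0.61 from DM+PGCLC to d8 DZ+PGCLC (limma adjusted p = 0.000228). The summed RPKM of 4 neural markers was 333 and 416 in DM+PGCLC and 150 to 215 in 4i ESC and N3+PGCLC. It was 11.6 and 13.9 in d4 DZ+PGCLC and 87.4 and 104 in d8 DZ+PGCLC. In DM+PGCLC nearly all of it was TUBB3 (8.38 and 8.70), and PAX6, SOX1 and ELAVL3 stood at -3.32 to -0.85. PAX6 and ELAVL3 stood at 2.53 to 4.23 in d8 DZ+PGCLC, and SOX1 at -1.01 and -0.87. The part of neural cells in the values of SLC18A2 was not tested.

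SLC6A12 (BGT1), a carrier of betaine and GABA, and SLC6A13 (GAT2), a GABA carrier, lie 6050 bases apart on chromosome 12 (chr12:190077-214570 and chr12:220621-262873, both on the minus strand) and were both highest in d8 DZ+PGCLC. SLC6A12 stood at 3.42 and 3.95 there, 0.14 and 0.66 in d4 DZ+PGCLC and -3.32 to -1.21 elsewhere, and SLC6A13 stood at 3.51 and 3.64, 1.44 and 2.17, and -2.60 to 1.54. From DM+PGCLC to d8 DZ+PGCLC SLC6A12 differed by 5.97 ± 0.82, and SLC6A13 rose by 5.07 ± 0.96 (limma adjusted p = 0.00257). Their libraries of 4i ESC were 2.11 and 2.88 apart. SLC6A6, the taurine carrier, stood at 6.52 to 7.51 in the 6 libraries of 4i ESC, N3+PGCLC and DM+PGCLC and at 2.06 to 3.35 in the 4 DZ+ libraries. It fell by 4.74 ± 0.29 from N3+PGCLC to d4 DZ+PGCLC (adjusted p = 4.24e-05) and by 4.22 ± 0.29 from DM+PGCLC to d8 DZ+PGCLC (adjusted p = 2.9e-05). SLC16A12, a creatine carrier, was high in d4 DZ+PGCLC, at 2.33 and 2.67 beside -2.78 to 0.33 in the other 8 libraries. The difference was 4.30 ± 0.48 from N3+PGCLC and -4.85 ± 0.48 to d8 DZ+PGCLC. SLC17A7 (VGLUT1), which loads glutamate into vesicles, stood at -1.22 and -1.75 in d4 DZ+PGCLC and 1.40 and 1.51 in d8 DZ+PGCLC.

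**Figure D4:**
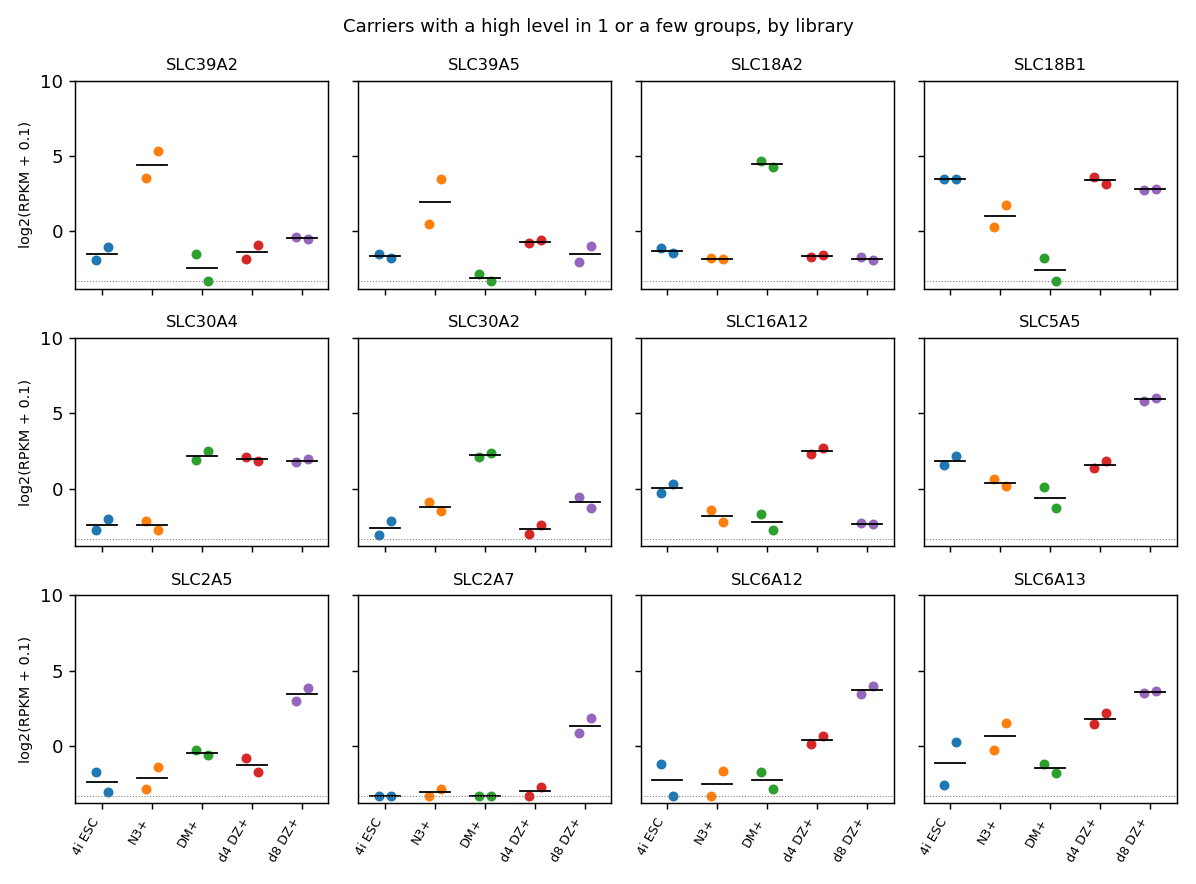
Level (log2(RPKM + 0.1), vertical axis, the same in every panel) of 12 carriers in each library (points) of the 5 groups (horizontal axis; N3+, DM+, d4 DZ+ and d8 DZ+ stand for the PGCLC groups), with the group mean as a black line and the level of 0 RPKM dotted. SLC39A2 is high in N3+PGCLC (3.53 and 5.34), SLC18A2 in DM+PGCLC (4.71 and 4.27), SLC16A12 in d4 DZ+PGCLC (2.33 and 2.67) and SLC5A5 in d8 DZ+PGCLC (5.85 and 6.02), and the neighbours SLC2A5 and SLC2A7, and SLC6A12 and SLC6A13, are highest in d8 DZ+PGCLC.

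Among ion carriers SLC5A5 rose in d8 DZ+PGCLC, and its rise from DM+PGCLC was the largest of the 170 genes in that comparison. SLC5A5 (NIS), the sodium-driven iodide carrier of the thyroid, stood at 1.59 and 2.14 in 4i ESC, 0.63 and 0.15 in N3+PGCLC, 0.12 and -1.32 in DM+PGCLC, 1.40 and 1.81 in d4 DZ+PGCLC and 5.85 and 6.02 in d8 DZ+PGCLC. It rose by 6.54 ± 0.48 from DM+PGCLC (limma adjusted p = 4.04e-05) and by 4.33 ± 0.48 from d4 DZ+PGCLC (adjusted p = 0.00137). SLC4A8, a sodium-driven exchanger of chloride and bicarbonate, was highest in DM+PGCLC and lowest in d8 DZ+PGCLC, with 6.34 and 5.66 in N3+PGCLC, 6.75 and 7.11 in DM+PGCLC, 3.65 and 3.97 in 4i ESC, 2.74 and 2.53 in d4 DZ+PGCLC and 2.09 and 2.07 in d8 DZ+PGCLC. Its fall from DM+PGCLC to d8 DZ+PGCLC was 4.85 ± 0.25 (adjusted p = 1.21e-05). SLC4A1 (band 3), the anion exchanger of red cells, stood at 1.09 and 1.61 in d8 DZ+PGCLC and at -1.16 or lower elsewhere, 4 of those 8 libraries being listed at 0 RPKM. SLC12A2 (NKCC1), which brings in sodium, potassium and chloride, was highest in d4 DZ+PGCLC (4.29 and 4.61) and fell by 1.27 ± 0.21 to d8 DZ+PGCLC (adjusted p = 0.0043). SLC12A4, a potassium-chloride carrier, and SLC4A7, a sodium-bicarbonate carrier, were the most abundant of this class, at 5.06 to 6.37 and 3.70 to 6.05. Of the 22 genes 7 rose (31.8%, beside 28.1% of all genes) and 5 fell (22.7%, beside 27.5%) from DM+PGCLC to d8 DZ+PGCLC. From d4 to d8 DZ+PGCLC 8 rose (36.4%, beside 15.4%) and 2 fell (9.09%, beside 8.3%). In this class SLC4A1 reached the limit on level in d8 DZ+PGCLC alone.

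Mitochondrial carriers held some of the most abundant members and moved in both directions. SLC25A3, the phosphate carrier, stood at 7.81 to 9.03 in the 10 libraries and was not called in any of the 4 comparisons. SLC25A29, a carrier of basic amino acids, stood at 7.10 to 7.91 in 4i ESC, N3+PGCLC and DM+PGCLC and at 4.89 to 5.33 in the DZ+ groups. It fell by 2.48 ± 0.17 from N3+PGCLC to d4 DZ+PGCLC (limma adjusted p = 5.64e-05) and by 2.65 ± 0.17 from DM+PGCLC to d8 DZ+PGCLC (adjusted p = 2.26e-05). SLC25A4 (ANT1), an exchanger of ADP and ATP best known in muscle, ran the other way. It stood at 4.56 and 4.60 in 4i ESC, 2.26 and 2.22 in N3+PGCLC, 2.11 and 1.89 in DM+PGCLC, 5.25 and 4.32 in d4 DZ+PGCLC and 5.06 and 5.35 in d8 DZ+PGCLC. SLC25A5, SLC25A6 and SLC25A31, the other exchangers of ADP and ATP, were not among the genes tabulated and were not analysed here. Of the 21 genes none rose (beside 13.9% of all genes) and 5 fell (23.8%, beside 12.1%) from N3+PGCLC to DM+PGCLC by limma. At an unadjusted limma p under 0.05, 6 were higher and 7 lower, and the share of all genes at that threshold is not given here. From DM+PGCLC to d8 DZ+PGCLC 6 rose (28.6%, beside 28.1%) and 4 fell (19.0%, beside 27.5%).

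The vitamin carriers SLC19A3 and SLC52A3 stood highest in 4i ESC, and SLC29A1, SLC44A1 and SLC44A2 fell from DM+PGCLC to d8 DZ+PGCLC. SLC19A3 (THTR2), which carries thiamine, stood at 2.70 and 3.35 in 4i ESC, 1.25 and 0.51 in N3+PGCLC, -0.01 or lower in DM+PGCLC, -1.39 and -1.91 in d4 DZ+PGCLC and -1.16 and -0.93 in d8 DZ+PGCLC. SLC52A3 (RFVT3), which carries riboflavin, stood at 3.05 and 3.10 in 4i ESC, 0.95 and -0.16 in N3+PGCLC and -2.18 to -0.59 in the other 6 libraries. SLC19A3 fell by 2.53 ± 0.49 from N3+PGCLC to d4 DZ+PGCLC (limma adjusted p = 0.00419), while it differed by -1.39 ± 0.49 to DM+PGCLC (adjusted p = 0.0644). SLC29A1 (ENT1), a nucleoside carrier, stood at 5.85 and 5.88 in 4i ESC, 5.94 and 5.46 in N3+PGCLC, 6.89 or higher in DM+PGCLC, 4.13 and 4.37 in d4 DZ+PGCLC and 4.56 and 4.44 in d8 DZ+PGCLC, and fell by 2.45 ± 0.17 from DM+PGCLC to d8 DZ+PGCLC (adjusted p = 3.56e-05). SLC44A1 and SLC44A2 are choline carrier-like genes. SLC44A1 stood at 4.59 and 4.58 in N3+PGCLC and 2.00 and 2.06 in d8 DZ+PGCLC, and fell by 1.87 ± 0.16 from DM+PGCLC to d8 DZ+PGCLC (adjusted p = 6.56e-05), and SLC44A2 fell by 1.84 ± 0.20 in the same comparison (adjusted p = 0.000194). SLC44A4, a carrier of choline and of a vitamin B1 ester, was high in DM+PGCLC (2.39 and 3.36, beside -2.44 to 0.43) with a difference of 3.52 ± 0.59 from N3+PGCLC. The riboflavin carrier SLC52A1 stood highest in DM+PGCLC (3.02 and 3.06), and the nucleoside carrier SLC28A1 in d8 DZ+PGCLC. Of the 17 genes 6 rose (35.3%, beside 13.9% of all genes) and 1 fell (5.88%, beside 12.1%) from N3+PGCLC to DM+PGCLC. From DM+PGCLC to d8 DZ+PGCLC 1 rose (5.88%, beside 28.1%) and 8 fell (47.1%, beside 27.5%). In this class SLC19A3 and SLC52A3 reached the limit on level in 4i ESC alone. SLC44A4 did so in DM+PGCLC alone, and SLC23A3 and SLC28A1 in d8 DZ+PGCLC alone.

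Of the 9 carriers of organic ions, bile acids and peptides 4 rose (44.4%, beside 13.9% of all genes) and none fell (beside 12.1%) from N3+PGCLC to DM+PGCLC by limma. At an unadjusted limma p under 0.05, 7 were higher and 0 lower. The share of all genes at that threshold is not given here. In this class SLC22A4 reached the limit on level in DM+PGCLC alone. SLC17A5 (sialin), which exports sialic acid from lysosomes, stood at 0.54 and 1.07 in N3+PGCLC and at 2.78 to 3.42 in the other 8 libraries, and rose by 2.57 ± 0.22 from N3+PGCLC to DM+PGCLC (adjusted p = 0.000347). SLC22A4 and SLC22A5 (OCTN1 and OCTN2), carriers of ergothioneine and carnitine that lie 25519 bases apart on chromosome 5 (chr5:132294394-132344190 and chr5:132369710-132395613, plus strand), were both highest in DM+PGCLC, at 1.38 and 1.92 and at 3.17 and 3.38, with every other library at 0.22 or lower and at 2.00 or lower. SLC47A1 (MATE1), which exports organic cations, stood at 5.01 and 5.27 in 4i ESC, 2.60 and 1.94 in N3+PGCLC, 4.07 and 2.67 in DM+PGCLC and 0.24 to 0.60 in the DZ+ groups, and fell by 2.94 ± 0.46 from DM+PGCLC to d8 DZ+PGCLC (adjusted p = 0.000982). SLC15A4, a lysosomal carrier of histidine and peptides, fell by 1.57 ± 0.22 in that comparison (adjusted p = 0.000552).

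All 5 carriers of nucleotide sugars and PAPS stood lower in d8 DZ+PGCLC than in DM+PGCLC. SLC35A2, which carries UDP-galactose, stood at 4.15 and 4.34 in 4i ESC, 6.45 and 5.58 in N3+PGCLC, 6.46 and 6.92 in DM+PGCLC, 4.18 and 4.40 in d4 DZ+PGCLC and 4.39 and 4.57 in d8 DZ+PGCLC. Of the 5 genes 4 fell (80.0%, beside 27.5% of all genes) and none rose (beside 28.1%) from DM+PGCLC to d8 DZ+PGCLC by limma. At an unadjusted limma p under 0.05, 5 were lower and 0 higher. The share of all genes at that threshold is not given here. The median difference was -1.15, beside 0.09 over all genes. Of the 4, SLC35B3 (group means 2.28 and 1.28) and SLC35B4 (4.43 and 3.28) lay nearest the limit of 1. Centring raises each difference of that comparison by 0.18, which takes both short of it. SLC35A2 fell by 2.20 ± 0.29 (adjusted p = 0.000439), and SLC35B2, a carrier of the sulfate donor PAPS, differed by -0.95 ± 0.18 (adjusted p = 0.00286), short of the limit of 1.

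Among the 25 genes with other or unsettled substrates SLC16A14, SLC7A4 and SLC38A11 stood out. SLC16A14, an orphan of the monocarboxylate family, stood at -1.34 and -2.01 in N3+PGCLC and 3.47 and 2.91 in d4 DZ+PGCLC, a rise of 4.86 ± 0.46 (adjusted p = 0.000173), the largest among the 170 genes in that comparison. SLC7A4 stood at 3.77 and 4.66 in DM+PGCLC and at -1.17 to 1.18 elsewhere, with a difference of 4.21 ± 0.77 from N3+PGCLC, whose libraries were 2.35 apart. Of its 75-base words 77.2% also occur in an overlapping gene without a symbol on the same strand, so its reads are uncertain. SLC38A11 was seen almost only in DM+PGCLC, at 0.26 and 3.21, and was listed at 0 RPKM in 6 of the other 8 libraries. Its DM+PGCLC libraries were 2.95 apart. SLC16A9, a carnitine carrier, was low in d8 DZ+PGCLC (-0.61 and -0.72) and in N3+PGCLC (0.42 and -0.31) and stood at 2.10 to 2.99 in the other 6 libraries, and fell by 3.41 ± 0.39 from d4 to d8 DZ+PGCLC (adjusted p = 0.00149). The adaptor SLC9A3R1 (NHERF1) stood at 4.83 and 6.68 in N3+PGCLC and 3.49 and 3.39 in DM+PGCLC, a fall of 2.31 ± 0.50 (adjusted p = 0.011). The difference was -1.39 without N3+PGCLC replicate 2 and was called no longer without DM+PGCLC replicate 2 (adjusted p = 0.064).

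Other families of membrane transport were counted in the same fit. Of 80 such genes among the 9706 (organic anion carriers SLCO, ABC pumps, ion-motive ATPases, aquaporins and partners of carriers), 18 rose (22.5%, beside 13.9% of all genes) and 11 fell (13.8%, beside 12.1%) from N3+PGCLC to DM+PGCLC, and 17 rose (21.2%, beside 15.5%) and 22 fell (27.5%, beside 24.1%) from N3+PGCLC to d4 DZ+PGCLC. From DM+PGCLC to d8 DZ+PGCLC 21 rose (26.2%, beside 28.1%) and 21 fell (26.2%, beside 27.5%), and from d4 to d8 DZ+PGCLC 14 rose (17.5%, beside 15.4%) and 4 fell (5.0%, beside 8.3%).

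Of the 170 genes 10 had libraries of 1 group that were over 2 apart. They were SLC5A9, SLC6A12 and SLC6A13 in 4i ESC, SLC2A13, SLC30A3, SLC39A5, SLC6A7 and SLC7A4 in N3+PGCLC, SLC38A11 in DM+PGCLC and SLC4A1 in d4 DZ+PGCLC. SLC2A13, an inositol carrier, and SLC39A5 were higher in N3+PGCLC replicate 2, by 2.12 and 3.01, and SLC6A7 and SLC7A4 were higher in replicate 1, by 3.40 and 2.35. No gene of d8 DZ+PGCLC was among them. Reads of a further few are shared with other genes: over 10% of the 75-base words of SLC4A5, SLC23A3, SLC9A3, SLC33A1, SLC2A3 and SLC2A11 occur elsewhere, and 52 of the 170 genes overlap another protein-coding gene, 10 of them on the same strand.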

How the data were processed

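RNA-seq of 10 libraries, 2 in each of 5 groups, was analysed; the 3 CUT&RUN samples of the series were not analysed here. The authors trimmed reads with Trim Galore, aligned them with STAR to GRCh38, keeping reads that mapped once, and deposited values on a log2 scale, log2(RPKM + 0.1) per gene and library, in 3 tables of genes that differ from 4i ESC. The submitters' processing notes also name HOMER and Bowtie2 2.2.5. The tables also hold the authors' log fold changes, false discovery rates and enriched terms, which were not used. No counts were given there, so count models could not be fitted. RPKM carries no counting error of its own, and the depth is known only roughly, from steps between low values.

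Differences were tested with limma 3.58.1 (R 4.3.3, intensity trend, all 10 libraries in 1 fit, Benjamini-Hochberg adjustment over 9706 genes), with a call at a difference over 1 and an adjusted p under 0.05. Differences are on the log2(RPKM + 0.1) scale, which understates the change of low genes. Comparisons with 4i ESC chose the members and were not tested. Alternatives were a pseudocount of 1, a filter on low genes, centred libraries, a replicate block, only the 4 libraries of a contrast, no trend, and leaving out each library. The method was tested on simulated data. Members, classes and lists were chosen with earlier results of these data known. Genes were named by rule: up to 6 called or moved genes per direction and comparison, the 2 most abundant per class, 26 well-known carriers (17 of them members), genes at the level limit, and genes whose libraries lay over 2 apart. Genes outside that rule, chosen after their values were seen, were SLC7A1, SLC16A7, SLC17A7, SLC22A4, SLC22A5, SLC25A4, SLC27A6, SLC28A1, SLC38A3 and SLC52A1. Values of some named genes are not reported here. Gene positions and overlaps came from GENCODE 44, in which all 170 genes matched, and promoters from RefSeq GRCh38.p14.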

Additional observations from a re-analysis of the deposited data

Results flagged for a closer look

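Opposite differences from 4i ESC in DM+PGCLC and in d8 DZ+PGCLC marked 17 of the 170 solute carriers (10.0%), beside 636 of all 9706 genes (6.55%) and 560 of the 7590 genes at the same level (7.38%): both libraries of 1 group stood above both 4i ESC libraries, both libraries of the other stood below, and each mean difference exceeded 1. Both differences use the same 4i ESC libraries, and the opposition was not tested. Of the 7 genes that stood higher in DM+PGCLC and lower in d8 DZ+PGCLC, 6 are given here with the difference in log2(RPKM + 0.1) in each group in that order: SLC16A10 (3.32 and -2.14), SLC29A1 (1.08 and -1.37), SLC38A5 (1.31 and -2.50), SLC43A1 (2.12 and -1.02), SLC4A8 (3.12 and -1.74), SLC7A8 (1.76 and -1.68). Among these SLC16A10, SLC38A5, SLC43A1 and SLC7A8 carry amino acids and SLC29A1 nucleosides. The 10 genes that stood lower in DM+PGCLC and higher in d8 DZ+PGCLC were SLC13A5 (-1.31 and 2.27), SLC16A14 (-1.80 and 1.35), SLC16A6 (-1.91 and 1.87), SLC27A6 (-2.19 and 1.17), SLC30A3 (-2.51 and 1.47), SLC35G2 (-1.94 and 1.29), SLC5A5 (-2.47 and 4.07), SLC5A9 (-2.31 and 3.18), SLC8A2 (-1.66 and 1.07), SLC9A5 (-1.99 and 1.88). Among these SLC5A5 carries iodide, SLC5A9 sugars, SLC13A5 citrate and SLC27A6 fatty acids. SLC13A5, SLC30A3 and SLC5A9 reached the limit on level in d8 DZ+PGCLC alone, so they are members only because they were high there. The 4i ESC libraries of SLC5A9 stood at -0.50 and 2.39, beside -0.77 and -1.96 in DM+PGCLC. With centred libraries the d8 DZ+PGCLC difference of SLC43A1 was -0.80, short of the limit of 1. With 2 libraries a group, single libraries that stand apart could not be checked for.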

How the results depend on the processing

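The counts of solute carriers called kept within 1.5 times of the main ones under most alternatives. With only the 4 libraries of a contrast fitted, 20 genes (16 higher and 4 lower) in place of 64 were called from N3+PGCLC to DM+PGCLC, and 46 (21 and 25) in place of 70 from N3+PGCLC to d4 DZ+PGCLC, with fewer samples behind the spread. Leaving out 1 library, with the lone library of a group assumed to vary like the others, gave 47 to 69, 57 to 71, 91 to 102 and 22 to 33 calls from N3+PGCLC to DM+PGCLC, N3+PGCLC to d4 DZ+PGCLC, DM+PGCLC to d8 DZ+PGCLC and d4 to d8 DZ+PGCLC, where the main counts were 64, 70, 99 and 48. The last fell to 30 without d4 DZ+PGCLC replicate 1, 28 without d8 DZ+PGCLC replicate 1 and 22 without d8 DZ+PGCLC replicate 2. Replicate numbers do not pair the libraries: deviations of same-numbered libraries correlated at -0.129 to 0.100, and a replicate block gave 63, 71, 100 and 45 calls. Crossed numbers in DM+PGCLC, chosen after seeing the data, gave 65 from N3+PGCLC to DM+PGCLC. Of 145 calls on named genes, refitted 1480 times in all, 164 refits lost the call and 0 reversed, 40 of the losses with only the 4 libraries and 20 with a pseudocount of 1. The number of members was 188 with a level limit of 0, 145 with a limit of 2 and 161 where both libraries had to reach 1. Depth limits most the genes near 0 RPKM, whose differences rest on the pseudocount.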
